A study of Mus musculus with 6 samples.

Results

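The genes described here encode the proteins that tie actin filaments to focal adhesions, crosslink them, pull on them and turn them over, together with Srf, the transcription factor that drives many actin genes. They are a list of 40 gene names matched by Ensembl ID, and they make up 41 of the 55536 genes in the files, because the name Myl12b belongs to 2 IDs. Their RNA was measured in 3 libraries of SVEC4-10 cells exposed to nattokinase for 24 hours and in 3 libraries of untreated SVEC4-10 cells. SVEC4-10 is an immortalised mouse line labelled endothelial, kept in serum-containing medium. Nattokinase is a fibrin-degrading serine protease of Bacillus subtilis, and no dose is stated for it. The question is which of these transcripts differ after the exposure. All libraries come from 1 cell line, and no label says that replicates were separate cultures, so each p-value speaks to differences among these 6 libraries, whose spread may be technical only.

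Focal adhesions are plaques at which integrins are linked to actin stress fibres through talin, vinculin, paxillin and LIM-domain proteins. Non-muscle myosin II, switched on through RhoA and its kinases ROCK1 and ROCK2, puts the fibres under tension, and cofilin, profilin, cyclase-associated protein and the thymosins recycle actin monomers. SRF binds a DNA element called the CArG box. Its MRTF cofactors are held in the cytoplasm by free actin monomers, so that SRF target genes respond to the state of the cytoskeleton. In endothelium this system carries the response to flow and to matrix stiffness.

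Between 15044778 and 18341370 reads were assigned to genes per library, and the listed genes took 2.28% to 2.36% of them in the nattokinase libraries and 1.95% to 1.99% in the controls. The labelled cell type was weakly marked. Of 20 endothelial and lymphatic markers only Pdpn, Flt1 and Flt4 had at least 1 FPKM (fragments per kilobase of exon, scaled to library size) in 3 libraries, while Pecam1 had at most 3 reads, Cdh5 at most 1 and Tie1, Erg, Cldn5, Emcn, Sox17, Prox1 and Lyve1 none. In bulk RNA, fewer cells of a type and less RNA per cell cannot be told apart. Flt1, a VEGF receptor gene, rose, at 4.84 ± 0.21 FPKM in nattokinase and 2.603 ± 0.23 FPKM in control libraries, Pdpn fell, at 102 ± 2.67 and 119 ± 5.96 FPKM, and Flt4 overlapped. At a limma adjusted p of at most 0.05, 5.61% of all 10913 tested genes rose and 3.24% fell, the background for these marker counts. Of 14 fibroblast and mural markers 7 were tested, with 0 higher and 1 lower. The collagen gene Col3a1 fell, at 95.8 ± 1.14 FPKM in nattokinase and 144 ± 2.62 FPKM in control libraries (log2 fold change -0.58, limma adjusted p = 7.7e-05), while Col1a1, at 1236 and 1403 FPKM, and Col1a2, at 511 and 524 FPKM, did not pass (limma adjusted p of 0.084 and 0.73). Of 8 leukocyte markers 2 were tested, and Cd68 rose, at 2.42 and 1.19 FPKM in nattokinase and control libraries, while Ptprc had 0 reads in all. Of 6 epithelial markers 2 were tested and 0 called. The part of these markers in the results was not tested. A set of 6 transcripts, Lars2 among them, was chosen as the tested genes with the largest falls in nattokinase libraries. None is in the list. The set took 0.763% ± 0.051 of reads in the nattokinase libraries and 3.35% ± 0.73 in the controls (SD, n = 3 each). A lower share with nattokinase is built into that choice. Protein-coding genes, not chosen by change, took 98.35% ± 0.045 of reads in the nattokinase libraries and 95.98% ± 0.66 in the controls. These groups did not overlap, at 98.3% to 98.39% and 95.42% to 96.71%. The part of either share in the results was not tested. With values rescaled to equal totals over protein-coding genes, 20 members were still called higher, as given with their exceptions below.

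Promoter sequences show how often the SRF element stands near these genes. RefSeq windows of the GRCm38.p6 build, from 250 bases before a start site to 50 after it, were matched by symbol for 34 of the 40 names, and Tln2, Pxn, Tgfb1i1, Parva, Diaph1 and Rock1 had no matched window. A CArG box on either strand was found for 8 of the 34 genes, or 23.5%, against 1.81% of all 27025 genes with a window. The 8 were Srf, Vcl, Fhl1, Fhl2, Filip1l, Lima1, Myl6 and Myl9. The following sequences, written 5′ to 3′ on the gene's strand with the CArG box in capitals, are the 250 bases before the start site of 5 of them that were called higher. The Srf sequence, chr17:46556163-46556412 on the minus strand, ends in 13 bases of a GENCODE exon. The Vcl sequence, chr14:20929148-20929397 on the plus strand, lies just outside the gene. Those of Fhl2 (chr1:43163962-43164211, minus strand), Lima1 (chr15:99820150-99820399, minus strand) and Filip1l (chr16:57548992-57549241, plus strand) lie in introns, before start sites inside the annotated gene.
Srf: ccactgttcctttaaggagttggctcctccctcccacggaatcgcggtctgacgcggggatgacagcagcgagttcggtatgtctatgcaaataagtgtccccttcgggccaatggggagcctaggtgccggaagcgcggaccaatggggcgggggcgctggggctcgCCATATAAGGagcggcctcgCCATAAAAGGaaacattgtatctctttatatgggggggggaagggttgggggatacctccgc
Vcl: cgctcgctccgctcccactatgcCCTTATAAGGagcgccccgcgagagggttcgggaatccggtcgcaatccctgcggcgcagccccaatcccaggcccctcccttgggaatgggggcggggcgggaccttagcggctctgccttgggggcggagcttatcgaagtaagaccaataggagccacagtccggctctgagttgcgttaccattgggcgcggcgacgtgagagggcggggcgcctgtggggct
Fhl2: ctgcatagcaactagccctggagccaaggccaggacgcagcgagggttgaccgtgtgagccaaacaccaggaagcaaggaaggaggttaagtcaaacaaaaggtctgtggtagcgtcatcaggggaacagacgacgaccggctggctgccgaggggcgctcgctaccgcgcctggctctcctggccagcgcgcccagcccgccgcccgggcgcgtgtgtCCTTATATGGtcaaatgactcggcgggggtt
Lima1: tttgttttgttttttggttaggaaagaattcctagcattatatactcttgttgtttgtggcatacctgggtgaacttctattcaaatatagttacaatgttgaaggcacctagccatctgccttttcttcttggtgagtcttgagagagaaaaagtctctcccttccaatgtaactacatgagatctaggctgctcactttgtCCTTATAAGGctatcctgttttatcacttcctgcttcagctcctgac
Filip1l: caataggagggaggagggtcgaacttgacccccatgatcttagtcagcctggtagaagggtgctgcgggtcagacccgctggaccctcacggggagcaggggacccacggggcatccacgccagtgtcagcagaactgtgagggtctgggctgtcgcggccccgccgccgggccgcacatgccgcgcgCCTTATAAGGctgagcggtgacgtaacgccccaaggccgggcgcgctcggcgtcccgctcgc
Srf held 2 boxes, CCATATAAGG at positions -82 to -73 and CCATAAAAGG at -62 to -53 from the start site. The same 10 letters, CCTTATAAGG, stood in the Vcl, Lima1 and Filip1l windows, at -227 to -218, -47 to -38 and -62 to -53. Fhl2 and Myl6 shared CCTTATATGG, at -31 to -22 and -50 to -41, and a second Fhl2 window held CCAAAAAAGG. Of the 250 bases before the start site, all 250 of Myl6 and 223 of the second Fhl2 window lie in exons annotated to the same gene. For Fhl1 and Myl9 these exonic bases numbered 87 and 44. All 7 tested genes with a box were called higher, as were 15 of the 27 tested entries with a window and no box. Among genes outside the list, 18 of 116 tested genes with a box were called higher and 3 lower, against 5.35% higher and 3.08% lower of 8089 without one. These counts were made after the values were seen and have no test. Other short motifs were searched on both strands as well. CATTCC, the core bound by TEAD factors, was in the windows of 7 members (20.6%) against 16.6% of all genes, and GGGCGG, a GC box, in those of 27 members (79.4%) against 38.2%. All genes here are the 27025 with a window, tested or not, whereas every member except Myl9 was a tested gene. No share among tested genes was computed for these 2 motifs, so the comparison is between unlike sets. A match of letters is a description of the window and not a bound site.

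**Figure D1:**
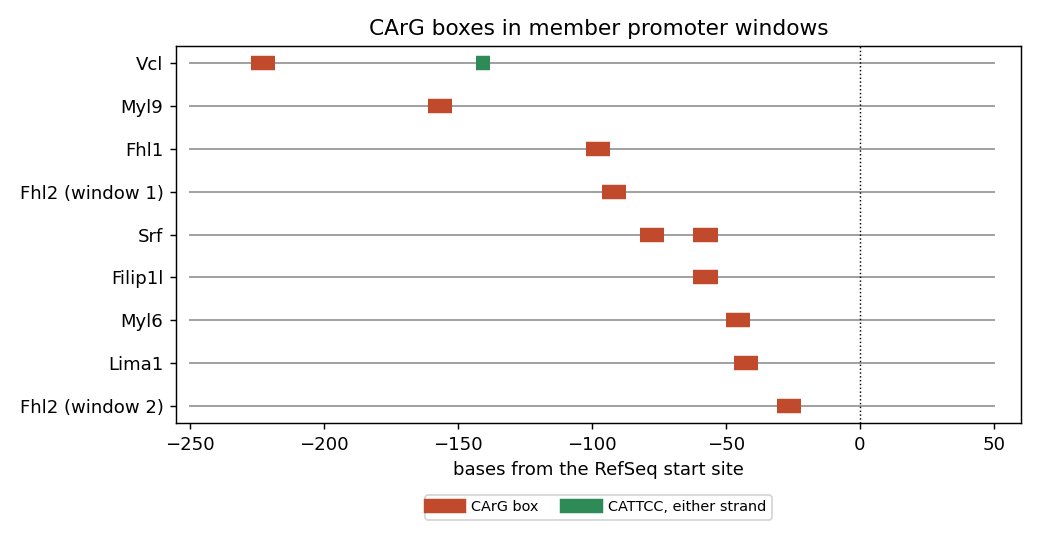
Position of each CArG box (red) and each CATTCC on either strand (green) in bases from the RefSeq start site, for the 9 windows of the 8 members that hold a CArG box. All boxes lie upstream of the start site, between -227 at Vcl and -22 at Fhl2.

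Transcript levels of the members differed widely. In the controls the highest means belonged to genes of actin monomer handling and crosslinking, with Tmsb4x at 760.5 ± 79.6 FPKM, Tmsb10 at 496 ± 45.3, Cfl1 at 385 ± 29.7 and Flna at 311 ± 3.62 (SD, n = 3). The neighbours Cfl1 and Flna did not overlap in the controls, at 351 to 402 and 307 to 313 FPKM, while Flna overlapped with Myl6, at 261 to 307 FPKM. At the low end Rock1, Ilk, Tln2 and the Myl12b entry ENSMUSG00000034868 lay between 1.53 and 3.61 FPKM in every control. The levels of Ilk and of this Myl12b entry are uncertain, as given below. Myl9, a myosin regulatory light chain gene typical of smooth muscle, had 0, 0.0982 and 0.141 FPKM in the nattokinase libraries, against 0.0531, 0.114 and 0 FPKM in the controls, and was the only member below the filter on low values. Replicates agreed closely, with a median coefficient of variation over the tested members of 3.90% in nattokinase libraries and 5.06% in controls.

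**Figure D2:**
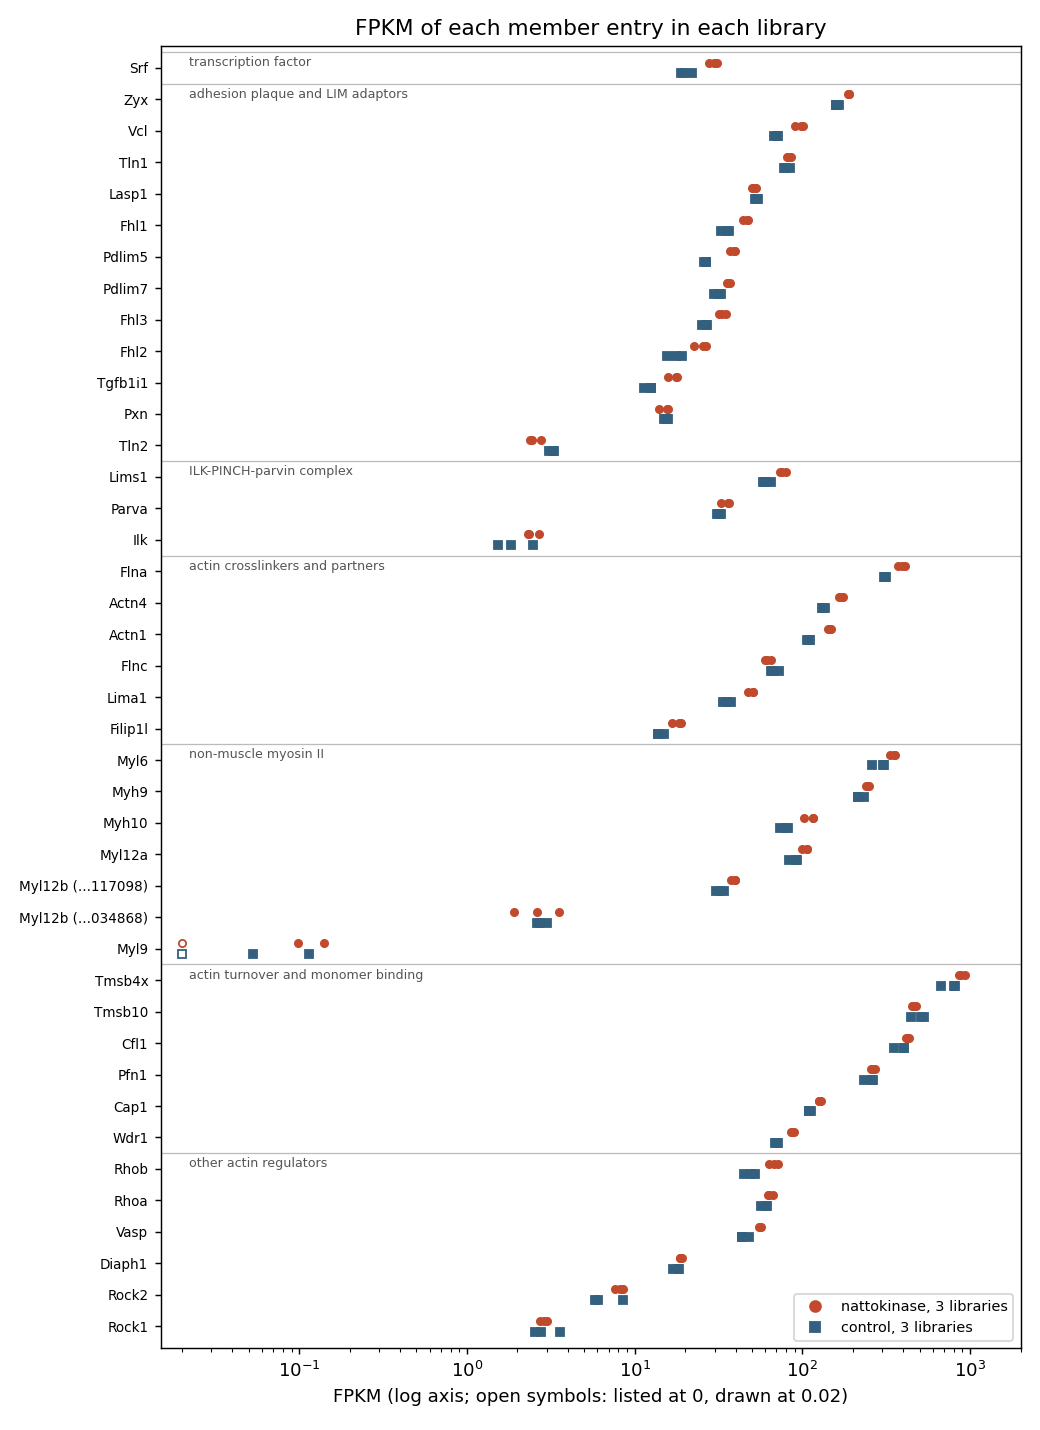
FPKM on a log axis for all 41 entries, grouped by role, with the 3 nattokinase libraries (red circles) above the 3 control libraries (blue squares) in each row. Srf, Pdlim5, Lima1, Myh10 and Rhob have nattokinase points clear of the control points, Tln1, Pxn and Pfn1 overlap, and Myl9 lies at or below 0.141 FPKM.

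Most members were more abundant in nattokinase-treated cells, by a modest margin. Of the 40 tested entries 23 rose and 1 fell at a limma adjusted p of at most 0.05 (57.5% higher), where 5.61% of all 10913 tested genes rose and 3.24% fell, or 8.85% in either direction. The remaining 16 entries did not pass the test. The median log2 fold change of the 40 was 0.24, against 0.01 over all tested genes, and 33 of 40 had a positive log2 fold change. The log2 fold change is nattokinase minus control on the log2(FPKM + 1) scale, on which changes of genes at a few FPKM come out too small. In 28 entries all nattokinase libraries lay above all controls and in 2 below, where such separation held for 17.4% and 11.4% of tested genes. The members were chosen with results of these data known, so these shares describe the list and no test is attached to them. Counts by role in the paragraphs below stand against the same 5.61% and 3.24%, rest on few genes each and likewise have no test. No member reached a 1.5-fold ratio of means, and against a 1.5-fold change 0 of them passed. The count of members that rose was 17 to 25 when single libraries were left out, lowest without nattokinase replicate 3 and highest without control replicate 1.

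**Figure D3:**
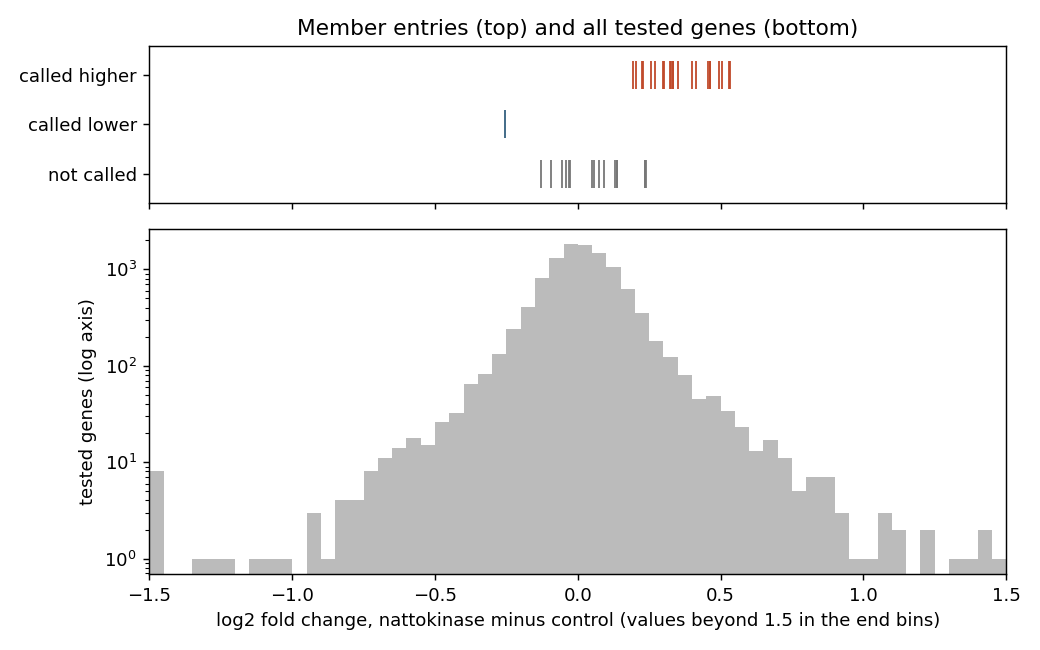
Log2 fold change of the 40 tested member entries (top, 1 mark per entry by call) above the histogram of all 10913 tested genes (bottom, log count axis). The 23 members called higher lie between 0.19 and 0.53, in the upper flank of the distribution, whose 95th percentile is 0.26.

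Srf itself was 1.46-fold higher. Its level was 27.9, 29.8 and 30.9 FPKM in the nattokinase libraries, against 19.8, 18.9 and 21.9 FPKM in the controls. The lowest treated library stood above the highest control, and the log2 fold change was 0.53 (limma adjusted p = 0.00074, SE 0.062) for the gene, at 46548329 to 46556175 of chromosome 17, GRCm38. The genes of its cofactors did not pass the test. Mrtfa had 20.6 ± 0.93 FPKM in nattokinase and 18.8 ± 0.54 FPKM in control libraries (log2 fold change 0.12, 95% interval 0.01 to 0.23, limma adjusted p = 0.17). Mrtfb had 6.13 ± 0.44 and 5.83 ± 0.33 FPKM in nattokinase and control libraries (interval -0.09 to 0.21, limma adjusted p = 0.65). Myocd, the cardiac and smooth muscle cofactor gene, did not reach the filter. Of 6 tested genes of SRF cofactors and partners 1 rose and 0 fell, the ETS factor gene Elk3 at a log2 fold change of 0.19 (limma adjusted p = 0.034). So few genes give no usable share to set against the 5.61% of all tested genes that rose. The Elk3 call was lost without control replicate 2 or 3 or any nattokinase replicate (limma adjusted p up to 0.15), and after rescaling to protein-coding totals (limma adjusted p = 0.071).

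Among 12 adhesion plaque and LIM-domain genes, 8 rose and 1 fell. Pdlim5, which encodes an α-actinin-binding PDZ and LIM protein, had 36.8, 39.2 and 39.8 FPKM in the nattokinase libraries, against 26.5, 26.8 and 25.8 FPKM in the controls. The groups were far apart for their spread, with a log2 fold change of 0.53 (limma adjusted p = 0.00019, SE 0.047) for the gene, at 142239590 to 142395696 of chromosome 3. Vcl, the gene of vinculin, which reinforces the talin to actin link under load, had 89.9, 98.4 and 101 FPKM with nattokinase, against 71.5, 67.4 and 71.1 FPKM in the controls. Its log2 fold change was 0.45 (limma adjusted p = 0.00085, SE 0.054) for the gene, at 20929398 to 21033676 of chromosome 14. Vcl shares 25.1% of its transcript sequence with the opposite-strand gene Ap3m1, counted as windows of 50 bases found in another gene's transcripts, and reads there cannot be assigned with certainty because no source used here states whether strand was used.

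The 3 FHL genes, whose proteins bind signalling and cytoskeletal partners, rose together. Fhl2 had 22.7, 26.8 and 25.6 FPKM in nattokinase libraries, against 15.5, 19.2 and 17.7 FPKM in controls, a log2 fold change of 0.50. Fhl1 was at 44.1 to 47.2 FPKM in the treated and 32.6 to 36.4 FPKM in the control libraries, and Fhl3 at 31.7 to 35.02 and 25.1 to 26.9 FPKM. None of the 3 overlapped between groups. Tgfb1i1, which encodes Hic-5, a paxillin relative, had 15.8, 17.9 and 17.8 FPKM with nattokinase, against 11.4, 12.4 and 12.6 FPKM without, with a log2 fold change of 0.46 (limma adjusted p = 0.0017). Paxillin itself, Pxn, had 14.02, 15.7 and 15.7 FPKM with nattokinase, against 15.03, 15.5 and 15.8 FPKM without. The Pxn groups overlap, and its interval of -0.15 to 0.10 on the log2 scale leaves room only for small differences.

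Zyxin (Zyx), a LIM protein recruited to strained stress fibres, averaged 188 ± 1.52 FPKM with nattokinase and 161 ± 4.06 FPKM in controls, a log2 fold change of 0.23 (limma adjusted p = 0.012). Pdlim7, another PDZ and LIM gene, averaged 36.03 ± 0.78 and 31.4 ± 1.57 FPKM in treated and control libraries, with a log2 fold change of 0.19 (limma adjusted p = 0.038). Both calls depended on single libraries. That of Zyx was lost without nattokinase replicate 2 or 3 or control replicate 3 (limma adjusted p of 0.053, 0.066 and 0.053). That of Pdlim7 was lost without any library except control replicate 1 (limma adjusted p up to 0.14), and after rescaling to protein-coding totals (limma adjusted p = 0.068).

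Of the talin genes, whose products activate integrins, only Tln2 passed the test. Tln1, the main form outside muscle and brain, had 82.02, 81.2 and 85.8 FPKM with nattokinase, against 84.03, 78.8 and 77.4 FPKM in controls, which overlap (log2 fold change 0.05, interval -0.06 to 0.16). Tln2 had 2.75, 2.37 and 2.46 FPKM with nattokinase, against 3.29, 3.25 and 3.08 FPKM without, and its log2 fold change of -0.26 was the only fall called in the list (limma adjusted p = 0.049). This call was lost without any 1 library, controls included (limma adjusted p between 0.050 and 0.18). Lasp1, a LIM and SH3 protein gene, had 51.9 ± 1.33 and 53.4 ± 1.15 FPKM in treated and control libraries (interval -0.14 to 0.06).

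Within the complex of integrin-linked kinase, PINCH and parvin, which connects integrin tails to actin, 1 of 3 genes rose. Lims1, the PINCH-1 gene, had 73.5, 79.99 and 75.3 FPKM in nattokinase libraries, against 64.7, 58.3 and 59.6 FPKM in controls. The groups did not overlap, and the gene, at 58323466 to 58424691 of chromosome 10, had a log2 fold change of 0.32 (limma adjusted p = 0.0054, SE 0.054). Parva, the α-parvin gene, overlapped between groups at 32.8 to 36.6 and 31.2 to 32.96 FPKM (log2 fold change 0.13, limma adjusted p = 0.17). Ilk stood far below its partners, with 2.69, 2.33 and 2.34 FPKM in nattokinase libraries, against 1.53, 2.49 and 1.83 FPKM in controls. Of its transcript windows 69.3% also occur in another gene, mostly the opposite-strand gene Taf10, so its level is uncertain.

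Of 6 crosslinker genes and partners 5 rose and 0 fell. Lima1, which encodes the filament-bundling protein EPLIN, had 47.2, 50.6 and 50.6 FPKM with nattokinase, against 37.4, 33.9 and 35.8 FPKM in controls. Its log2 fold change was 0.46 (limma adjusted p = 0.00062, SE 0.052) for the gene, at 99778470 to 99875456 of chromosome 15. Actn1, an α-actinin gene, had 143, 146 and 148 FPKM in treated libraries, against 109, 106 and 111 FPKM in controls, with a log2 fold change of 0.41 (limma adjusted p = 0.00049, SE 0.044) for the gene, at 80167547 to 80260371 of chromosome 12. The other non-muscle α-actinin gene, Actn4, moved by a similar amount, at 164, 174 and 173 FPKM with nattokinase, against 130.2, 134 and 137 FPKM without (log2 fold change 0.35).

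Filamin A (Flna), the most abundant of the 6 crosslinker and partner transcripts, had 375, 392 and 409 FPKM in nattokinase libraries, against 313, 313 and 307 FPKM in controls (log2 fold change 0.33, SE 0.051, limma adjusted p = 0.0032). Filip1l, named for its likeness to a filamin-interacting protein, was at 16.6 to 18.97 FPKM with nattokinase and 13.7 to 14.9 FPKM without, with a log2 fold change of 0.32 and no overlap. Flnc, the muscle-type filamin gene, was the member of the group with lower values. It had 61.9, 60.02 and 64.7 FPKM in nattokinase libraries, against 72.9, 66.8 and 65.02 FPKM in controls. The Flnc groups just fail to overlap, and the log2 fold change of -0.13 did not pass (limma adjusted p = 0.19).

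**Figure D4:**
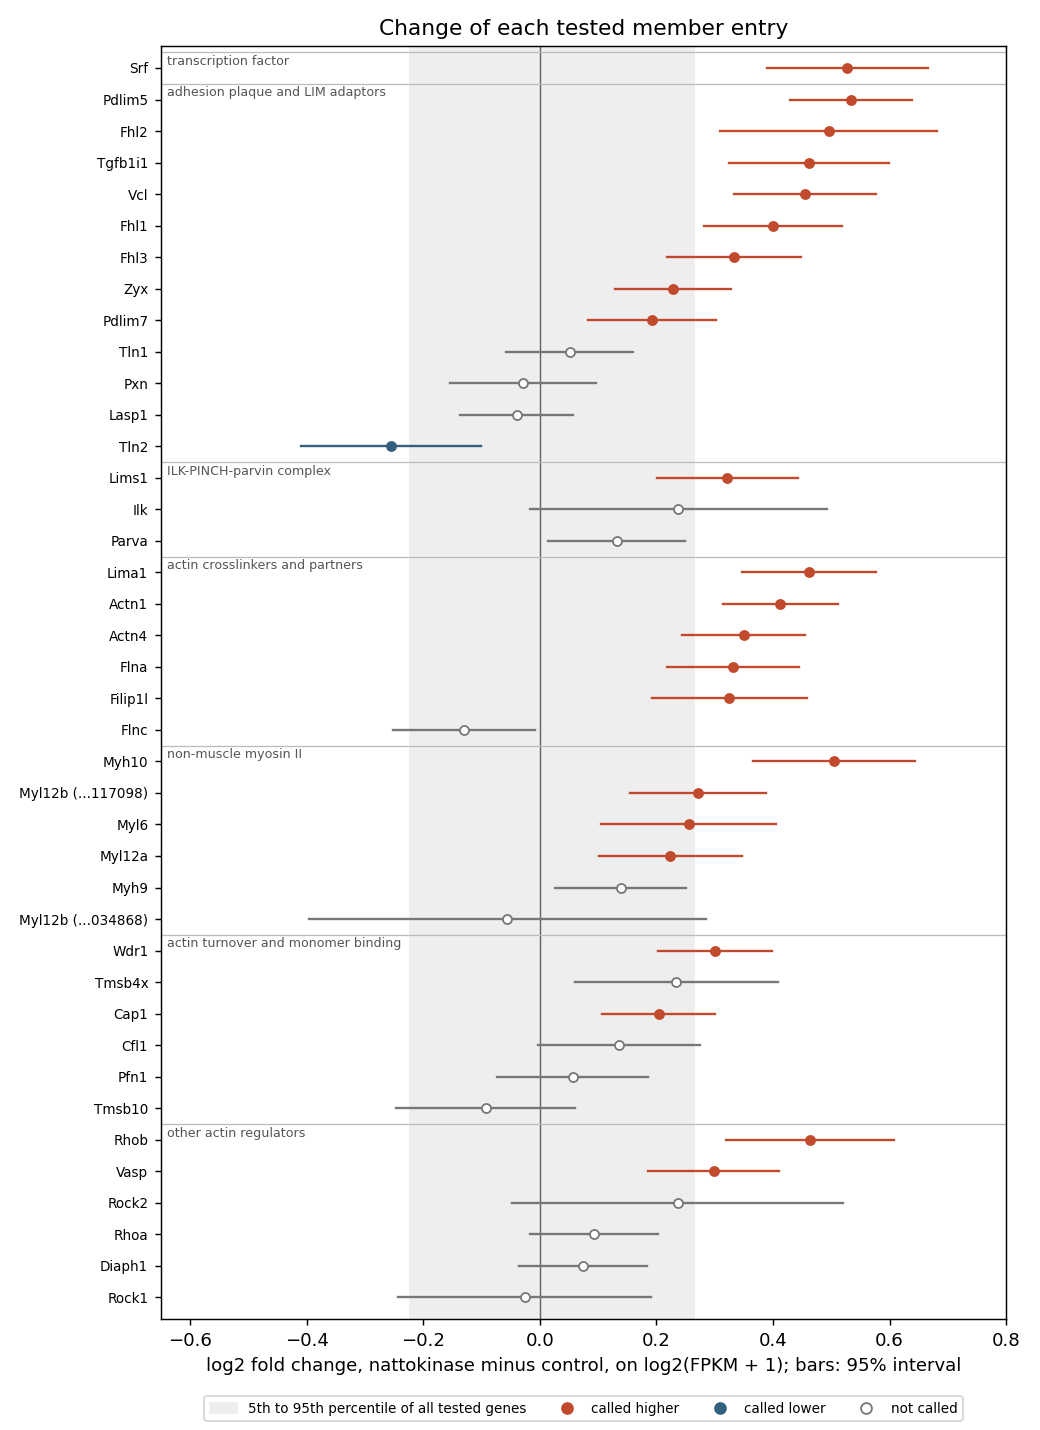
Log2 fold change of the 40 tested entries with 95% intervals, grouped by role, with filled symbols for entries called higher (red) or lower (blue) and open symbols for the others. The grey band spans the 5th to 95th percentile of all tested genes, -0.22 to 0.26, and 5 of 6 crosslinkers lie beyond it, whereas 4 of 6 actin turnover genes are not called.

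Genes of non-muscle myosin II, the motor of stress fibres, gave 4 entries that rose and 0 that fell among 6 tested. Myh10, the heavy chain of myosin IIB, had 103, 116 and 116 FPKM with nattokinase, against 81.7, 73.5 and 79.8 FPKM without. No treated library approached a control, and the log2 fold change was 0.50 (limma adjusted p = 0.0010, SE 0.062) for the gene, at 68691559 to 68816632 of chromosome 11. Myh9, the heavy chain of myosin IIA and the more abundant of the pair, had 242, 241 and 249 FPKM with nattokinase, against 233, 216 and 216 FPKM in controls. Its groups do not overlap, but the log2 fold change of 0.14 did not pass (limma adjusted p = 0.13). Without control replicate 1 it passed, at 0.17 on the log2 scale (limma adjusted p = 0.016), and it also passed with limma-voom on recovered reads (adjusted p = 0.043).

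Differences of the light chains were small. Myl6, the essential light chain, had 351, 355 and 332 FPKM in nattokinase libraries, against 261, 302 and 307 FPKM in controls (log2 fold change 0.26, limma adjusted p = 0.044). Myl12a, a regulatory light chain, had 107, 100.3 and 106 FPKM with nattokinase, against 83.2, 91.2 and 93.4 FPKM without (log2 fold change 0.22, limma adjusted p = 0.033). Both calls were lost without control replicate 2 or any nattokinase replicate (limma adjusted p up to 0.15 for Myl6 and 0.13 for Myl12a), and after rescaling to protein-coding totals (0.064 and 0.053). Myl12a and Myl12b are neighbours on chromosome 17 with near-identical coding sequence, and 21.1% of the windows of Myl12a occur in other genes. The Myl12b entry ENSMUSG00000117098, which spans parts of both genes and shares 95.6% of its windows with other genes, rose by 0.27 on the log2 scale, at 39.1 ± 1.199 FPKM with nattokinase and 32.2 ± 1.81 FPKM without. Its call was lost without nattokinase replicate 3 (limma adjusted p = 0.053). The entry ENSMUSG00000034868 overlapped between groups, at 1.90 to 3.56 FPKM in treated and 2.61 to 2.998 FPKM in control libraries, on 95 to 173 reads. Its level is uncertain too, since 25.4% of its windows also occur in other genes.

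Actin turnover and monomer-binding genes include the most abundant members, and 2 of 6 rose and 0 fell. Wdr1, which encodes the cofilin cofactor AIP1, had 85.1, 86.5 and 89.03 FPKM in nattokinase libraries, against 68.7, 71.9 and 70.4 FPKM in controls. The groups did not overlap, and the gene, at 38526813 to 38563221 of chromosome 5, had a log2 fold change of 0.30 (limma adjusted p = 0.0024, SE 0.044). Cap1, cyclase-associated protein 1, had 130.2, 126 and 126 FPKM with nattokinase, against 112, 109 and 109.6 FPKM without (log2 fold change 0.20, limma adjusted p = 0.018). The Cap1 call was lost without control replicate 2 or 3 or any nattokinase replicate (limma adjusted p between 0.060 and 0.075).

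Cofilin (Cfl1), which severs filaments, had 430.2, 417 and 420 FPKM in nattokinase libraries, against 351, 402 and 402 FPKM in controls. Profilin (Pfn1), which feeds monomers to growing ends, had 269.8, 257 and 262 FPKM, against 234, 265 and 261 FPKM in controls. Thymosin β4 (Tmsb4x), the main monomer-sequestering peptide, had 937, 858 and 881 FPKM with nattokinase, against 669, 801 and 812 FPKM without, and its log2 fold change of 0.23 did not pass (limma adjusted p = 0.10), though it did with limma-voom on recovered reads (adjusted p = 0.024). Thymosin β10 (Tmsb10) had 479, 459 and 453 FPKM with nattokinase, against 445, 509 and 533 FPKM without. Levels of Tmsb10 and Cfl1 are uncertain, since 27.0% and 18.3% of their transcript windows also occur in other genes. Control replicate 1 was the lowest control for each of these 4 genes. Without it the difference of Tmsb10 was -0.17 on the log2 scale and passed (limma adjusted p = 0.030), and that of Tmsb4x was 0.14 and did not (limma adjusted p = 0.065). The same library was the lowest control for 14 of 16 tested members with under 4 kb of exons, with a median log2 difference from the other controls of -0.16, and for 9 of 24 longer ones, with a median of 0.01. Over all tested genes these medians were -0.09 and 0.03. The part of this library in the results on short transcripts is seen only in the values without it.

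Among the remaining members Rhob, which encodes a short-lived GTPase, had 63.5, 71.4 and 68.1 FPKM in nattokinase libraries, against 44.8, 49.7 and 52.03 FPKM in controls. The groups did not overlap, and the gene, at 8497661 to 8500009 of chromosome 12, had a log2 fold change of 0.46 (limma adjusted p = 0.0019, SE 0.065). Vasp, a filament elongation factor at adhesions, had 55.4, 56.4 and 55.9 FPKM with nattokinase, against 43.7, 43.8 and 48.4 FPKM without (log2 fold change 0.30, limma adjusted p = 0.0054). Rhoa had 62.97, 66.5 and 62.5 FPKM with nattokinase, against 57.03, 61.1 and 61.8 FPKM without (log2 fold change 0.09, interval -0.02 to 0.20). Diaph1, a formin gene, had 18.8 ± 0.28 and 17.8 ± 0.86 FPKM in treated and control libraries (interval -0.04 to 0.18). The kinase genes were low. Rock1 had 2.99, 2.89 and 2.75 FPKM with nattokinase, against 3.61, 2.53 and 2.77 FPKM in controls, and Rock2 had 8.48, 8.17 and 7.62 FPKM, against 8.55, 5.82 and 6.04 FPKM in controls. Control replicate 1 was the highest control for both kinase genes. Without it Rock2 passed, at 0.39 on the log2 scale (limma adjusted p = 0.0066).

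Ratios between related members within a library do not depend on how the library was scaled. Of 11 such ratios, chosen after the values were seen and therefore given with no test, 7 were higher in all nattokinase than in all control libraries, 1 was lower and 3 overlapped. The order of genes within a ratio was set by hand, so the split into higher and lower has no meaning of its own. No such count was made for other gene pairs. The Myh10 to Myh9 ratio was 0.425, 0.483 and 0.466 in nattokinase libraries, against 0.351, 0.341 and 0.37 in controls. The Flna to Flnc ratio was 6.05, 6.54 and 6.32, against 4.29, 4.69 and 4.72 in controls. For Tgfb1i1 to Pxn it was 1.12, 1.14 and 1.13 with nattokinase, against 0.761, 0.801 and 0.795 without. For Rhob to Rhoa it was 1.01, 1.07 and 1.09 with nattokinase, against 0.785, 0.814 and 0.842 in controls. Whether a ratio lies above or below 1 depends on the exon lengths behind FPKM. These were 5585 and 8195 bases for Tgfb1i1 and Pxn, and 2349 and 7494 bases for Rhob and Rhoa. In reads, Tgfb1i1 stayed below Pxn and Rhob below Rhoa in every library. The Tmsb4x to Tmsb10 ratio averaged 1.92 ± 0.049 with nattokinase and 1.53 ± 0.036 without, a narrow spread given the wide spread of each gene in the controls, with the limit on Tmsb10 given above. The Rock1 to Rock2 ratio averaged 0.356 ± 0.0041 and 0.439 ± 0.0185 in treated and control libraries. Ratios between the α-actinin genes and between the FHL genes overlapped.

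**Figure D5:**
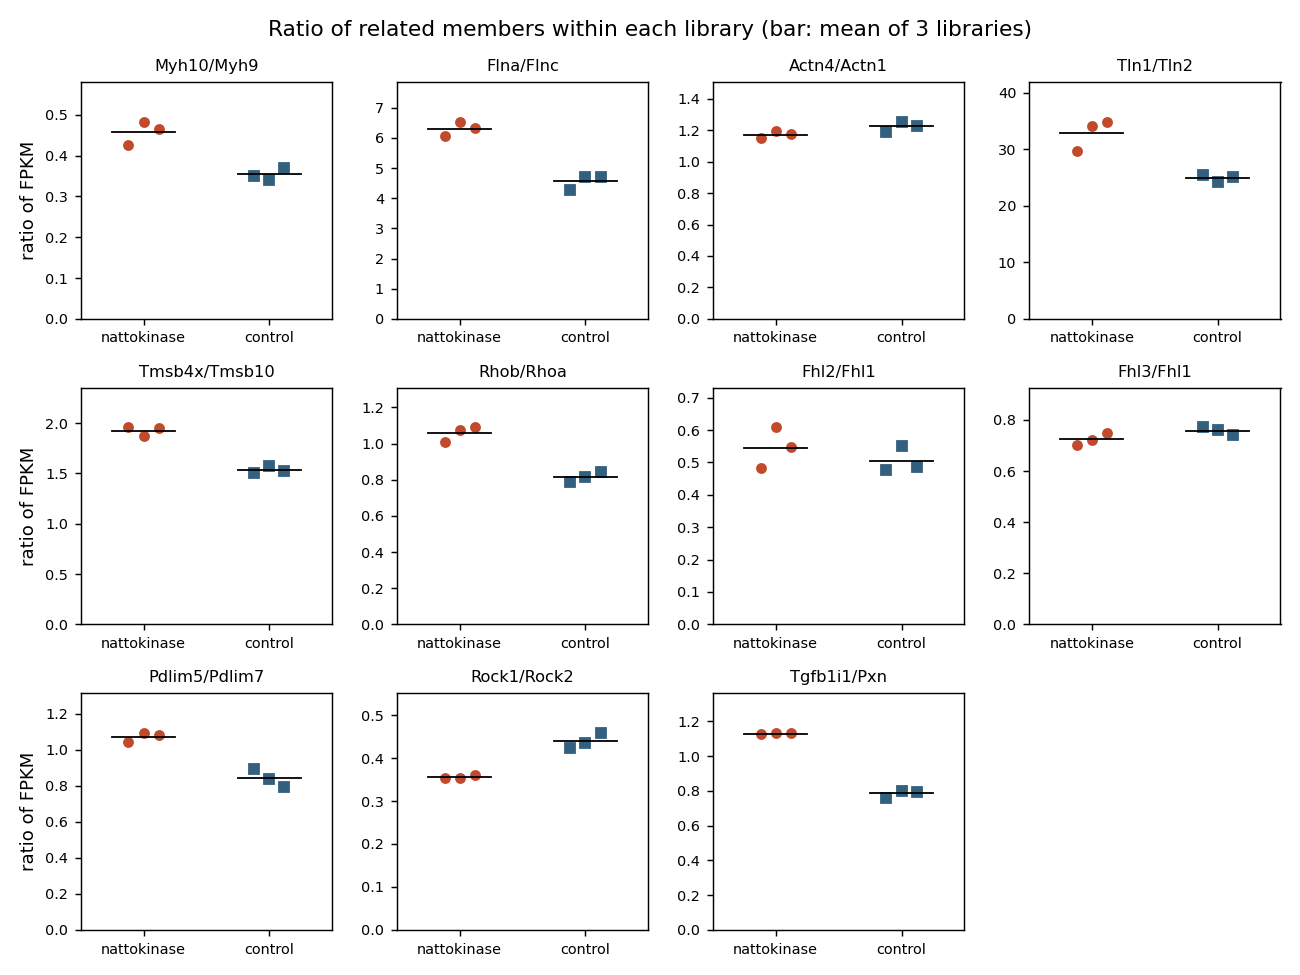
Ratio of FPKM between related members in each library, nattokinase (red circles) left of control (blue squares), with bars at the mean of 3 libraries and axes from 0. The Tgfb1i1 to Pxn ratio lies at 1.12 to 1.14 in nattokinase and 0.761 to 0.801 in control libraries, while Actn4 to Actn1 and the FHL ratios overlap.

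Other genes of the same machinery, on lists that do not contain the members, were also partly higher. Of 119 tested genes 35 rose and 0 fell (29.4% higher), with a median log2 fold change of 0.11, where 5.61% of all tested genes rose and 3.24% fell with a median of 0.01. The counts by list below do not add up to these. The 119 also include the 6 tested genes of SRF cofactors and partners given above, and 1 list that is not reported separately. At an unadjusted p of at most 0.05 limma gave 53 higher and 6 lower, and limma-voom on recovered reads called 44 and 0. The count of 35 was 18 without nattokinase replicate 3, 20 without nattokinase replicate 2, 22 without control replicate 2, and 23 with the replicate number as a block. Over all tested genes the count of 612 higher was 344, 328, 360 and 439 in the same settings. After rescaling to protein-coding totals 28 of the 119 rose and 2 fell, with 478 higher and 497 lower over all tested genes. Whether the share differs from that of the members was not tested.

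Of 36 other adhesion genes 12 rose. Csrp1, a LIM protein gene, averaged 217 ± 8.38 FPKM with nattokinase and 146 ± 6.32 FPKM without (log2 fold change 0.57, limma adjusted p = 0.00026). Nexn, an actin-binding protein gene, averaged 4.86 ± 0.24 and 3.25 ± 0.030 FPKM in treated and control libraries, and Fermt2, which encodes the talin partner kindlin-2, 49.9 ± 1.14 and 40.1 ± 1.53 FPKM. Among 35 other turnover genes 10 rose, those with the smallest p being the bundling protein gene Pls3 at 55.8 ± 0.49 and 38.3 ± 1.43 FPKM, the depolymerising factor gene Dstn at 194 ± 0.80 and 139 ± 3.73 FPKM, and Aif1l at 32.3 ± 0.88 and 22.02 ± 1.69 FPKM in nattokinase and control libraries. Cofilin and Dstn belong to 1 family, and Dstn passed (log2 fold change 0.47, limma adjusted p = 0.00028) where Cfl1 did not, and the difference between them was not tested.

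Of 13 other myosin genes 6 rose, among them Myo10, a filopodial motor gene, at 28.0 ± 2.81 FPKM with nattokinase and 18.9 ± 1.14 FPKM without, and Myo1e at 18.3 ± 1.07 and 14.7 ± 0.22 FPKM. Mylk, the myosin light chain kinase gene, had a log2 fold change of 0.45 (limma adjusted p = 0.013), and its call was lost without nattokinase replicate 2 or 3 or control replicate 2 (adjusted p up to 0.059).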

How the data were processed

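Software listed in the submitters' processing notes, with no role or order, is DESeq2 1.22.1, featureCounts 1.6.0, HISAT2 2.1.0, Trimmomatic 0.38, MultiQC, FastQC and CASAVA. They name GRCh38, a human build, although the gene IDs are mouse. The authors deposited FPKM, 1 file per library, as read from the values: each value above 0 times the merged exon length in GENCODE M21 (GRCm38) gives whole reads within 0.05 for 100% of values. No source used here states strand use or how reads on overlapping genes were counted. The files held 0 columns of other samples. A floor of 3 reads on 2 kb of exons is 0.0818 to 0.0997 FPKM, for counting error only.

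Groups and replicate numbers came from sample titles. A gene was tested where 3 or more libraries had 1 FPKM or more, on log2(FPKM + 1) with limma 3.58.1 in R 4.3.3 (trend, robust prior), two-sided, with Benjamini-Hochberg adjustment over all 10913, at 0.05. Every adjusted p is from this fit unless named otherwise. The script was tested on simulated data. Within groups log2 values correlated at 0.992 to 0.995, and the mean chi-square per gene was 2.43 or more, above sampling noise. Members, lists and tests were chosen with earlier results of these data known. All 40 member names are reported. Of other lists up to 3 called genes with the smallest p per direction are named, plus Mrtfa and Mrtfb. Alternatives changed the filter, pseudocount, scaling, test, block and libraries. The result of 1 gene list is not reported here.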

Additional observations from a re-analysis of the deposited data

How the results depend on the processing

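Of the 23 member entries called higher, 13 kept the call in all 13 settings other than the test against a 1.5-fold change, 4 more (Fhl2, Vasp, Lims1 and Filip1l) lost it only without the filter on low values, and 17 kept it with each library left out. Without the filter 14 members, 14 other adhesion and actin genes, and 221 genes in all were called higher, and 0 members and 109 genes in all lower. That setting tests 24549 genes. Against a 1.5-fold change 0 members rose or fell, 0 other adhesion and actin genes rose, and 12 genes in all rose and 5 fell. The single member called lower was lost, leaving 0, with a minimum of 5 FPKM (where Tln2 is not tested), with a pseudocount of 0.1, and with the replicate number as a block. The cause of the other changes was not tested. Rescaling to protein-coding totals moved the median of all genes by -0.03 and left 20 members higher, 2 other adhesion and actin genes lower, with 478 genes higher and 497 lower in all; the higher share of calls was 49.0%, and 63.4% with values as deposited.

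With single libraries left out the counts ran from 17 to 25 members higher, 0 to 1 lower, 328 to 720 genes higher, 197 to 486 lower, and 18 to 36 other adhesion and actin genes higher and 0 to 2 lower. In all, 3 uncalled values changed sign this way: the log2 fold change of Pxn ran from -0.056 to 0.022 and that of the Myl12b entry ENSMUSG00000034868 from -0.22 to 0.11, both highest without nattokinase replicate 1, and that of Rock1 from -0.1055 to 0.086, highest without control replicate 1. Same-numbered libraries did not deviate together (correlations of -0.09, -0.04 and -0.06), and 0 of 6 libraries correlated best with their own number. With 3 libraries per group this check cannot settle whether same-numbered libraries were handled together, and no label says so. The replicate block gave 18 members higher and 0 lower, 23 other adhesion and actin genes higher, and 439 genes higher and 249 lower.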
